A study of Homo sapiens with 4 samples.

Results

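The 10 genes described here belong to the network of transcription factors built around MAX and MLX, with a pair of its target genes: MYC, MAX, MXD1, MXI1, MXD3, MXD4, MNT, MLXIP, TXNIP and ARRDC4. They were chosen by name, with earlier results of these data known, and were found among the 25609 genes of the expression table by their Ensembl identifiers. All passed the expression filter, which left 16590 genes to test. The cells were HK-2, a human proximal tubule line immortalised with papillomavirus oncogenes and labelled wild type. In the TGF-β1 group (2 libraries), cells were kept without serum for 24 h and then given transforming growth factor β1 at 20 ng/mL for 24 h. The control group (2 libraries) carries the treatment label control, and since 1 protocol text covers every sample it was assumed to have gone through all of it except the cytokine. All 4 libraries share the serum withdrawal and 4-thiouridine, a uridine analogue, at 100 μM for the last 20 h, and all come from 1 cell line, with nothing that says whether replicates were separate cultures. The p-values therefore reflect library-to-library spread, which may be technical.

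MYC pairs with MAX and binds the E-box CACGTG, where it activates genes of growth, ribosome production and cell division. The MXD proteins, MXI1 and MNT compete for MAX, bind the same sites and recruit SIN3 and histone deacetylases, so they oppose MYC. MLX, a relative of MAX, pairs with MondoA (encoded by MLXIP) or ChREBP, which sense glucose phosphates and bind paired E-box-like elements in genes such as TXNIP and ARRDC4. In many epithelial cells TGF-β is known to repress MYC transcription through SMAD3, E2F4 or E2F5 and p107, as part of growth arrest.

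The element through which MondoA and MLX are known to act is visible in the promoter of TXNIP. The spaced pair CACGNG, 5 bases of any kind and CNCGNG was searched on both strands of the RefSeq windows on GRCh38.p14, each from 250 bases before to 50 after an annotated start, and 0.501% of 35116 windows held it. In TXNIP the match began 88 bases before the start, on the strand of the gene. A stretch of MXI1 upstream of its second annotated start also fitted the pattern, on the opposite strand, and neither stretch contains CACGTG itself. The windows of ARRDC4, MAX, MXD1, MXD3, MXD4, MNT and MLXIP held no match to the pair. Capitals mark the matched bases.
TXNIP, chr1:145996631-145996687, minus strand: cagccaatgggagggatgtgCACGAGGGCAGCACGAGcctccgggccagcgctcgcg
MXI1, chr10:110210141-110210197, plus strand: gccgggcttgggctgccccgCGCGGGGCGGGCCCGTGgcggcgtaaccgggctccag

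The single E-box CACGTG, a palindrome that reads the same on both strands, occurred in 7.26% of all windows. MXD4, MNT and ARRDC4 each had 1 match, printed here with the E-box in capitals. MAX, MXD1, MXD3, MXI1, MLXIP and TXNIP had no CACGTG in theirs, which says only that these letters are not in these windows. The window of MYC was not used here.
MXD4, chr4:2262322-2262359, minus strand: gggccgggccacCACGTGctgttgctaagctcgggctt
MNT, chr17:2401228-2401273, minus strand: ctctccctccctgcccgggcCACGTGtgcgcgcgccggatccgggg
ARRDC4, chr15:97960473-97960518, plus strand: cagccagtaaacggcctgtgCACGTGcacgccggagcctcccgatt

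Because the series is about miR-17 and miR-20a, 2 microRNAs of the MYC-driven MIR17HG cluster, the network genes were also searched for matches to their seed. The mature sequences from RefSeq share the same seed (bases 2 to 8, in capitals).
miR-17-5p: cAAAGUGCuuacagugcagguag
miR-20a-5p: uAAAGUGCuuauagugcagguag

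The seed match GCACTTT occurred in the longest annotated 3′ untranslated region of 26% of 11548 tested genes. Of the 10 network genes, 4 had matches. TXNIP had 2 in 1416 bases, and 19.8% of tested genes with regions of similar length had at least 1. MLXIP had 3 in 5535 bases (58.2% of genes of similar length), MXI1 1 in 2378 bases (32.3%) and MXD1 1 in 4661 bases (53.2%). The other 2 sites of MLXIP, not printed, have the flanks of Alu repeats, which carry this word throughout the genome. A match is a description of sequence and not evidence of repression, and these genes did not share a direction, as given further on.
TXNIP, first match: aggtgatgttcttaGCACTTTaattcct
TXNIP, second match: cactctcagccataGCACTTTgttcact
MXI1 match: gaaatttctagcctGCACTTTgatgtca
MXD1 match: aaaaagatatgtctGCACTTTgaggtcc
MLXIP, first match: ctcgtggaaagaatGCACTTTaaagctc

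The whole reads recovered from the deposited values summed to 4655935 and 5472436 in the TGF-β1 libraries and to 3346290 and 4816421 in the controls. Of 12 tubule epithelium markers in the table, 8 reached 10 reads in a library, and the list summed to 390 and 427 RPKM with TGF-β1 against 299 and 320 RPKM in controls; 3 of its 7 tested genes rose (KRT8, KRT18 and CDH2) and 2 fell (PAX8 and EPCAM). The differentiated tubule markers ANPEP, CUBN, AQP1, SLC34A1 and SLC5A2 did not reach the expression filter. Markers of leukocytes, endothelium and podocytes did not reach 10 reads in any library, and the fibroblast and pericyte list summed to 8.96 and 7.01 RPKM with TGF-β1 against 12.3 and 13 RPKM in controls, nearly all of it from LUM. Their part in the results was not tested.

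With TGF-β1, MLXIP rose, MXI1 and TXNIP fell, and the other 7 network genes, MYC among them, did not pass the test. The test was limma on log2(RPKM + 0.5) with p-values adjusted over all tested genes by the Benjamini-Hochberg method, and a gene is called where its adjusted p is below 0.05. RPKM, reads per kilobase of exon scaled by library size, can be set side by side between genes. The library size behind these values was 0.893 and 0.86 times the recovered reads with TGF-β1 and 1.01 and 0.976 times in controls. TGF-β1 values thus stand higher against controls than they do with scaling by total reads. Of all tested genes 9.12% were called, 6.12% higher and 3.0% lower. The median log2 difference over the 10 was -0.14, against 0.03 over all tested genes; scaling by total reads, an alternative, put these medians at -0.30 and -0.13. Both TGF-β1 libraries lay above both controls in 4 of the genes (MAX, MXD4, MLXIP and ARRDC4) and below both in 3 (MXI1, MNT and TXNIP), where 54.1% of all tested genes had groups that did not overlap, 29.5% higher and 24.6% lower. In bulk RNA, fewer cells that express a gene and less RNA per cell cannot be told apart.

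**Figure D1:**
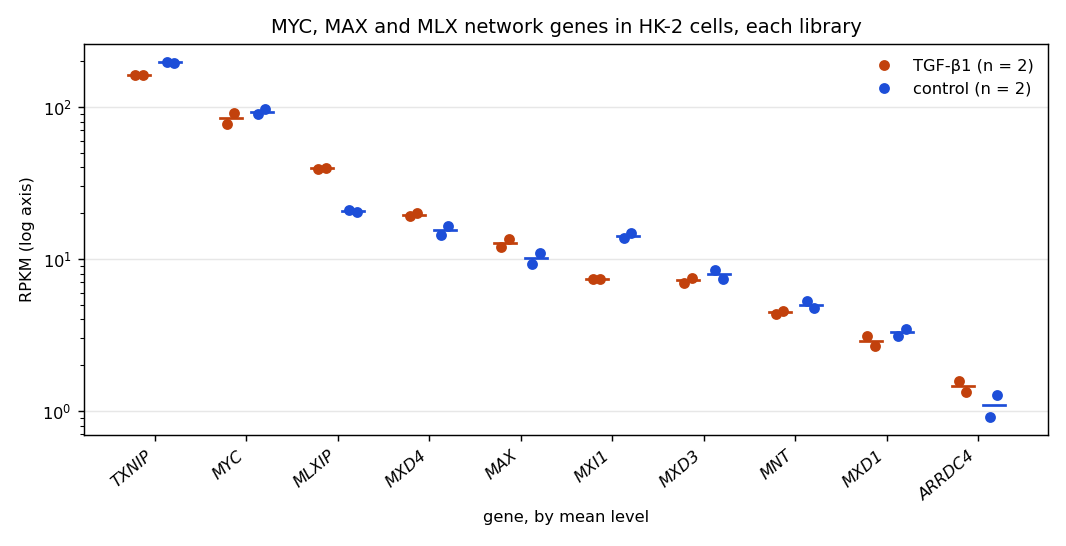
RPKM of the 10 network genes on a log axis, in order of mean level. Points are single libraries, with TGF-β1 in orange on the left and control in blue on the right of each gene, and bars are means of 2 libraries; MLXIP, at 39.2 and 39.6 with TGF-β1, stands clear of its controls at 20.9 and 20.3, MXI1 lies below its controls, and the MYC libraries overlap.

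MYC (ENSG00000136997.17, hg38 chromosome 8, 127735434 to 127741434, plus strand) was among the abundant transcripts of these cells. It measured 77.6 and 90.5 RPKM with TGF-β1 and 89.6 and 96.8 RPKM in controls, on 968 and 1278 reads with TGF-β1 against 911 and 1365 reads in controls. The groups overlapped, since TGF-β1 replicate 2 lay above control replicate 1. The log2 difference was -0.15 (standard error 0.09, 95% confidence interval -0.39 to 0.09, limma adjusted p = 0.407). After quantile normalisation the difference was -0.39 and passed (adjusted p = 0.0418), the only 1 of 15 alternatives in which it did.

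PVT1, the non-coding neighbour of MYC and the only tested transcript among 6 listed around it, had 5.85 and 5.24 RPKM with TGF-β1 and 5.4 and 4.98 RPKM in controls. Its log2 difference was 0.09 (95% confidence interval -0.25 to 0.42, limma adjusted p = 0.746) and changed sign to -0.08 with scaling by total reads. MIR17HG, the MYC-driven host of miR-17 and miR-20a, was named after its values were seen. It had 1.48 and 1.31 RPKM with TGF-β1 and 0.971 and 1.55 RPKM in controls, on 21 and 21 reads with TGF-β1 against 11 and 25 reads in controls. Its groups overlapped, with a log2 difference of 0.12 and an interval of -0.55 to 0.80.

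MAX (ENSG00000125952.18, chromosome 14, 65006174 to 65102695, minus strand) encodes a partner shared by MYC, the MXD proteins and MNT. It measured 11.9 and 13.6 RPKM with TGF-β1 and 9.29 and 11 RPKM in controls. Both treated libraries lay above both controls, but the log2 difference of 0.32 did not pass (standard error 0.13, 95% confidence interval -0.01 to 0.65, limma adjusted p = 0.208). On the RPKM scale MYC stood at 6.51 and 6.63 times MAX with TGF-β1 and at 9.65 and 8.78 times MAX in controls. This ratio was lower in both treated libraries and, being formed within a library, does not depend on how libraries were scaled. With 2 libraries a group, an exact two-sided permutation test of such a ratio cannot go below p = 0.333.

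Among the antagonists, MXI1 fell. MXI1 (ENSG00000119950.20, chromosome 10, 110207605 to 110287365, plus strand) encodes an MXD-type repressor, also called MXD2, with several annotated starts. It measured 7.39 and 7.35 RPKM with TGF-β1 and 13.7 and 14.7 RPKM in controls, on 141 and 159 reads with TGF-β1 against 213 and 317 reads in controls. The treated libraries were nearly identical, and each lay at 0.501 to 0.541 times either control. The log2 difference was -0.90 (standard error 0.10, 95% confidence interval -1.14 to -0.65, limma adjusted p = 0.00939). It stayed between -1.07 and -0.85 under 15 alternatives and missed the threshold in 1 of them, without the variance trend (adjusted p = 0.0541). Of all tested genes 582 had a lower log2 difference.

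MXD4 moved the other way without passing. MXD4 (ENSG00000123933.16, chromosome 4, 2247432 to 2262294, minus strand), a repressor of the same family associated with differentiated cells, measured 19 and 20 RPKM with TGF-β1 and 14.4 and 16.5 RPKM in controls. Both treated libraries were higher, with a log2 difference of 0.33 (standard error 0.10, 95% confidence interval 0.08 to 0.58, limma adjusted p = 0.116). The precision-weighted fit to the recovered reads, which used 558 and 665 reads with TGF-β1 against 345 and 548 reads in controls, was the only alternative that called it (adjusted p = 0.0125).

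The other antagonists differed little. MXD1 (ENSG00000059728.10, chromosome 2, 69897688 to 69942945, plus strand), the founding MXD repressor, had 3.13 and 2.66 RPKM with TGF-β1 and 3.09 and 3.47 RPKM in controls, and the groups overlapped (log2 -0.16, 95% confidence interval -0.59 to 0.28). MNT (ENSG00000070444.14, chromosome 17, 2384060 to 2401118, minus strand), the broadly expressed antagonist of MYC, had 4.34 and 4.54 RPKM with TGF-β1 and 5.25 and 4.74 RPKM in controls. Its treated libraries were both lower, but the log2 difference of -0.15 did not pass (95% confidence interval -0.49 to 0.19, limma adjusted p = 0.543).

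MXD3 (ENSG00000213347.10, chromosome 5, 177301461 to 177312757, minus strand), the member linked to S phase in mouse cells, had 6.93 and 7.48 RPKM with TGF-β1 and 8.5 and 7.37 RPKM in controls. The groups overlapped, with a log2 difference of -0.13 and an interval of -0.44 to 0.19. Its exons overlap those of PRELID1 on the other strand over 22.5% of their length and those of RAB24 on the same strand over 18%. PRELID1 alone had 700 and 844 reads with TGF-β1 and 503 and 709 reads in controls, far above MXD3, which had 148 and 181 reads with TGF-β1 and 148 and 178 reads in controls. The strand setting was not given in the sources used here, and the level of MXD3 is uncertain.

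As a pool, the antagonists summed to slightly less with TGF-β1, and their makeup differed. MXD1, MXD3, MXD4, MXI1 and MNT summed to 40.8 and 42.1 RPKM with TGF-β1 and to 44.9 and 46.8 RPKM in controls. MXD3, whose level is uncertain, made up 17% and 17.8% of the sum with TGF-β1 and 18.9% and 15.8% in controls. The sum, the shares and the ratio of MYC to this sum carry that uncertainty. MYC stood at 1.9 and 2.15 times this sum with TGF-β1 and at 1.99 and 2.07 times it in controls, so that the control values lay inside the range of the treated ones. MXI1 made up 18.1% and 17.5% of the sum with TGF-β1 and 30.4% and 31.3% in controls, whereas MXD4 made up 46.6% and 47.6% with TGF-β1 and 32.1% and 35.3% in controls. MXD4 and MXI1 were close to even in controls, at ratios of 1.06 and 1.13, and stood at 2.58 and 2.72 with TGF-β1. These are ratios of transcripts and say nothing of protein or of which dimers formed.

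**Figure D2:**
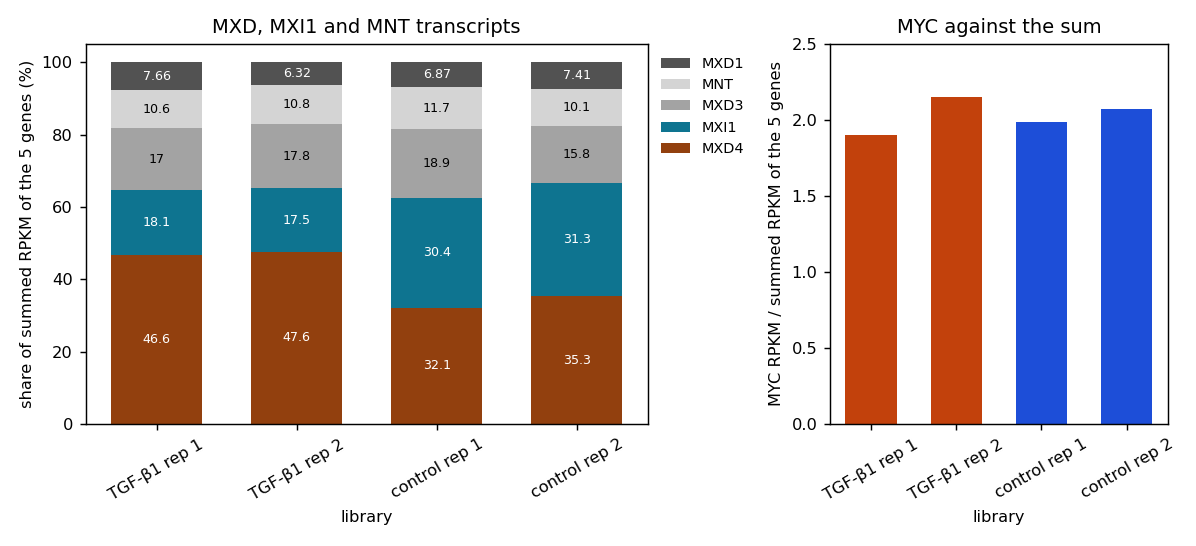
Left: share of MXD4, MXI1, MXD3, MNT and MXD1 in the summed RPKM of these 5 genes, as a percentage, 1 bar per library, TGF-β1 replicates before control replicates. Right: MYC RPKM divided by that sum; the MXI1 segment is 18.1% and 17.5% with TGF-β1 against 30.4% and 31.3% in controls, while the ratio on the right lies between 1.9 and 2.15 in all 4 libraries.

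On the MLX side, MLXIP rose. MLXIP (ENSG00000175727.13, chromosome 12, 122078722 to 122147347, plus strand) encodes MondoA, which shuttles between the outer mitochondrial membrane and the nucleus and activates genes with MLX when glucose phosphates accumulate. It measured 39.2 and 39.6 RPKM with TGF-β1 and 20.9 and 20.3 RPKM in controls, on 2265 and 2590 reads with TGF-β1 against 986 and 1329 reads in controls. The replicates of each group lay close together and far from the other group, and any treated library stood at 1.87 to 1.94 times any control. The log2 difference was 0.92 (standard error 0.07, 95% confidence interval 0.74 to 1.09, limma adjusted p = 0.00365). Of the tested genes, 770 had a larger positive difference. It stayed between 0.74 and 0.94 under 15 alternatives and just missed the threshold in 1 of them, without the variance trend (adjusted p = 0.05).

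The MLX transcript did not pass the test. MLX, which was not among the chosen genes, had 10.3 and 9.45 RPKM with TGF-β1 and 8.41 and 9.52 RPKM in controls, and the groups overlapped (log2 0.13, 95% confidence interval -0.16 to 0.42, limma adjusted p = 0.538). ChREBP (MLXIPL) had 4 and 2 reads with TGF-β1 and 2 and 3 reads in controls and was below the filter, so no difference in it was detectable at this depth. Of the 5 other family genes listed, 3 could be tested and 0 were called by limma; 0 of these 3 had an unadjusted p under 0.05, and 1 (MGA) was called by the precision-weighted fit. MGA, a large MAX partner that also carries a T-box domain, had the smallest p, with 3.28 and 3.62 RPKM with TGF-β1 and 4.19 and 4.67 RPKM in controls (log2 -0.32, limma adjusted p = 0.272).

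TXNIP, the best known target of MondoA and MLX, did not follow MLXIP upward. TXNIP (ENSG00000265972.5, chromosome 1, 145992435 to 145996600, minus strand) encodes an α-arrestin that binds thioredoxin and curbs glucose uptake, and it was the most abundant of the 10 transcripts. It measured 163 RPKM in both TGF-β1 libraries and 198 and 194 RPKM in controls, on 2453 and 2785 reads with TGF-β1 against 2436 and 3306 reads in controls. Both treated libraries were lower, at 0.822 to 0.841 times either control. The log2 difference was small but precise, -0.27 (standard error 0.05, 95% confidence interval -0.41 to -0.13, limma adjusted p = 0.0482). The call was marginal, and omission of any 1 library ended it: the adjusted p was 0.162 and 0.17 without TGF-β1 replicates 1 and 2 and of 0.142 and 0.109 without control replicates 1 and 2. The difference kept its sign in all 15 alternatives, from -0.52 to -0.25.

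ARRDC4 (ENSG00000140450.8, chromosome 15, 97960698 to 97973838, plus strand), the α-arrestin most closely tied to TXNIP as a MondoA target, was weakly expressed. It had 1.57 and 1.33 RPKM with TGF-β1 and 0.905 and 1.28 RPKM in controls, on 26 and 25 reads with TGF-β1 against 12 and 24 reads in controls. The treated values were both higher, but the log2 difference of 0.30 had an interval of -0.33 to 0.93 (limma adjusted p = 0.52). The exact Poisson 95% interval of its 12 reads in control replicate 1 runs from 6.2 to 21 reads and covers counting error only, so a difference of this size was not detectable at this depth. On the RPKM scale TXNIP stood at 104 and 123 times ARRDC4 with TGF-β1 and at 219 and 152 times ARRDC4 in controls.

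**Figure D3:**
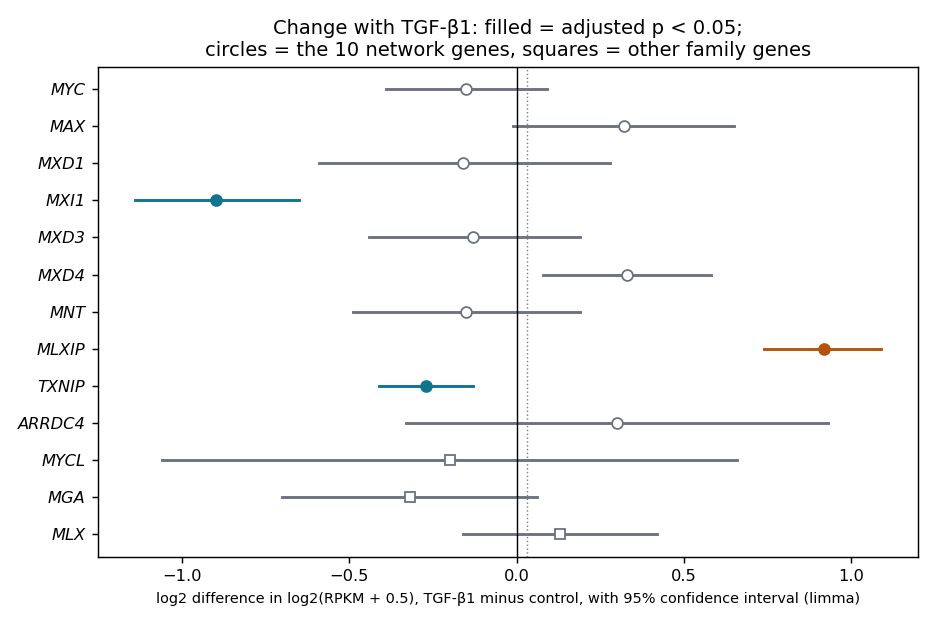
Log2 difference of each gene, TGF-β1 minus control, on log2(RPKM + 0.5), with its 95% confidence interval from limma; circles are the 10 network genes, squares are MYCL, MGA and MLX, filled symbols have an adjusted p below 0.05, and the dotted line is the median of all tested genes. MLXIP at 0.92 and MXI1 at -0.90 stand apart from 0 in opposite directions, TXNIP lies at -0.27, and the interval of MYC spans 0.

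In order of level with TGF-β1, TXNIP came first, followed by MYC, MLXIP, MXD4 and MAX, each clear of the next. MXI1 and MXD3 followed, and their library values overlapped, so their order is not settled, before MNT, MXD1 and ARRDC4. In controls MXD4 and MXI1 shared a place, since their values overlapped, and MAX stood below both and above MXD3. The change in place of MXI1 was thus the main difference in order between the groups.

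By Euclidean distance between centred log2 profiles over the 4 libraries, the genes most like MLXIP among 13452 with a mean of at least 1 RPKM were STEAP3, ZMIZ1 and VASN. STEAP3, a metalloreductase, had 15.9 and 16.1 RPKM with TGF-β1 and 8.5 and 8.09 RPKM in controls, at a distance of 0.021. ZMIZ1, a transcriptional coregulator, had 23.7 and 23.4 RPKM with TGF-β1 and 12.1 and 11.9 RPKM in controls, and VASN, a membrane protein that binds TGF-β, had 53.6 and 53.1 RPKM with TGF-β1 and 27.9 and 26.8 RPKM in controls. With 4 libraries in 2 groups, such likeness amounts to a similar fold with little spread.

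Genes around the network were counted in 13 lists, chosen with earlier results of these data known, which can raise such counts. Outside the 10, 189 of the listed genes could be tested. Of these, 28 were higher and 11 lower, beside 6.12% higher and 3.0% lower among all tested genes. With scaling by total reads the balance turned, to 14 higher and 19 lower. Their median log2 difference was 0.08, against 0.03 over all tested genes, and it turned to -0.09 with scaling by total reads, which moves the median of all tested genes to -0.13. The small list medians below shift with it, and no list is called different from other genes.

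Of 34 tested MYC-activated genes of ribosome production and the nucleolus, 3 rose and 0 fell, with a median of 0.16 that turned to -0.02 with scaling by total reads. At an unadjusted p under 0.05 in limma, 13 genes were higher and 1, POLR1B, was lower. The precision-weighted fit called 9 higher and 1 lower. The 3 were MRTO4, a ribosome assembly factor, at 70.7 and 72.3 RPKM with TGF-β1 against 57.1 and 54.9 RPKM in controls, POLR1C, a subunit shared by RNA polymerases I and III, at 34.8 and 36 RPKM with TGF-β1 against 26.5 and 27.3 RPKM in controls, and NOP2, an rRNA methyltransferase, at 44.1 and 47.1 RPKM with TGF-β1 against 35.2 and 36.5 RPKM in controls. These are differences of 0.34 to 0.39 on the log2 scale, and all 3 calls were lost with scaling by total reads and with any 1 library left out, when 0 genes of the list passed.

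Of 32 MYC-activated growth and metabolic genes, 7 rose and 0 fell (median 0.05, or -0.12 with scaling by total reads, under which 5 rose and 4 fell). In limma 12 were higher and 4 lower at an unadjusted p under 0.05, and the precision-weighted fit called 10 higher and 4 lower. With 1 library left out 3 to 6 rose. SLC7A5, the light chain of the large neutral amino acid transporter, rose 2.81-fold to 129 and 130 RPKM with TGF-β1, against 45.9 and 46.3 RPKM in controls (limma adjusted p = 0.00121), and passed in all 15 alternatives. The glutamine transporter SLC1A5 rose to 146 and 154 RPKM with TGF-β1, against 91 and 101 RPKM in controls. SHMT2, the mitochondrial enzyme that makes glycine from serine, rose to 102 and 99.4 RPKM with TGF-β1, against 69.6 and 68.6 RPKM in controls. ODC1, the polyamine enzyme long used as a marker of MYC activity and named after its values were seen, did not pass, at 38.1 and 37.2 RPKM with TGF-β1 and 45.1 and 51.1 RPKM in controls (log2 -0.35, limma adjusted p = 0.0705).

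Of 17 MYC-activated cell cycle genes, 3 rose and 0 fell, while the median was -0.12, and with scaling by total reads 1 rose and 3 fell (median -0.30). At an unadjusted p under 0.05 in limma, 4 genes were higher and 3 lower, and the precision-weighted fit called 3 higher and 1 lower. The 3 that rose in the main test act in mitosis. AURKB, the kinase of the chromosomal passenger complex, had 152 and 153 RPKM with TGF-β1 and 119 and 112 RPKM in controls. CCNB1, mitotic cyclin B1, had 116 and 118 RPKM with TGF-β1 and 80.9 and 89.4 RPKM in controls, and BIRC5, the passenger protein survivin, had 87 and 85.9 RPKM with TGF-β1 and 67.7 and 71.7 RPKM in controls. The AURKB and BIRC5 calls did not hold with scaling by total reads, nor did any of the 3 without either TGF-β1 library. The calls of CCNB1 and BIRC5 were also lost without control replicate 1, and those of AURKB and BIRC5 without control replicate 2.

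Genes listed as MYC- and MIZ1-repressed moved strongly in both directions. Of 17 tested, 5 rose and 4 fell (median -0.08), and with 1 library left out 4 or 5 rose and 3 or 4 fell. CDKN2B, the CDK inhibitor p15 and a textbook TGF-β target held down by MYC, rose 6.86-fold to 21.8 and 20.7 RPKM with TGF-β1, against 3.82 and 2.39 RPKM in controls (log2 2.62, limma adjusted p = 0.00447). The MYC transcript did not pass, and whether MYC had a part in the rise of CDKN2B was not tested. GADD45B, a stress and SMAD target, rose 2.96-fold to 72.3 and 75 RPKM with TGF-β1, against 24.1 and 25.7 RPKM in controls, and CCND1, cyclin D1, rose 4.26-fold to 13.6 and 13.4 RPKM with TGF-β1, against 2.96 and 3.37 RPKM in controls. HSPB1 and THBS1 also rose, and CEBPD, NDRG1, GADD45A and CDKN1C fell, by 1.70, 1.28, 1.02 and 0.87 on the log2 scale; these 6 were named after their values were seen. The THBS1 call, at the threshold (limma adjusted p = 0.0496), was lost with scaling by total reads and without TGF-β1 replicate 2 or either control library, and the CDKN1C call was lost without either TGF-β1 library. CDKN1A, the inhibitor p21, also named afterwards, had 50.3 and 44.7 RPKM with TGF-β1 and 57.4 and 50.1 RPKM in controls, and its groups overlapped.

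Upstream of MYC, 0 of 12 tested regulators rose and 2 fell, while a threshold of 2 RPKM, the precision-weighted fit and omission of control replicate 2 each called 1 higher. SMAD3, a receptor-activated SMAD, fell to 19.4 and 20.4 RPKM with TGF-β1, against 27.7 and 29.4 RPKM in controls, and TFDP1, the dimer partner of E2F proteins, fell to 39.1 and 40.7 RPKM with TGF-β1, against 50.8 and 50.9 RPKM in controls. The SMAD3 call was lost without either TGF-β1 library or control replicate 2, and the TFDP1 call with any 1 library left out. Of 17 genes for MYC turnover and kinases, 2 rose and 2 fell. PIM1, a kinase that phosphorylates MYC, rose to 57.7 and 58.7 RPKM with TGF-β1, against 41.5 and 36.4 RPKM in controls, and PLK1, a mitotic kinase, rose to 40.2 and 43.3 RPKM with TGF-β1, against 28.3 and 31.4 RPKM in controls. Both of these calls were lost with scaling by total reads and without either TGF-β1 library, and that of PLK1 also without control replicate 1. PPP2R5A, the phosphatase subunit that promotes MYC decay, fell to 6.89 and 4.8 RPKM with TGF-β1, against 12.9 and 13.2 RPKM in controls (log2 -1.12, limma adjusted p = 0.0259), a call lost without either control library, and SKP2, an ubiquitin ligase subunit named afterwards, fell by 0.62 on the log2 scale, a call lost with any 1 library left out.

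Among 13 corepressor genes for the MXD proteins and MNT, 2 rose and 0 fell. HDAC1, a histone deacetylase, had 51 and 55.9 RPKM with TGF-β1 and 42.3 and 39.3 RPKM in controls, a call at the threshold (adjusted p = 0.0496). Of 15 MYC coactivators and partners, 2 rose and 0 fell: ZBTB17, which encodes MIZ1, to 22.1 and 23.3 RPKM with TGF-β1, against 15.2 and 17 RPKM in controls, and KAT5, an acetyltransferase, to 19.1 and 19.3 RPKM with TGF-β1, against 14 and 15 RPKM in controls. No alternative called a gene of these 2 lists lower. With scaling by total reads, and without either TGF-β1 library or control replicate 1, the calls of HDAC1, ZBTB17 and KAT5 were lost. Those of HDAC1 and KAT5 were also lost without control replicate 2. KAT5 was also at the threshold (limma adjusted p = 0.0496). Of 15 alternatives, HDAC1 and KAT5 were each called in 3 and ZBTB17 in 8.

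Other targets of MondoA and ChREBP did not move as a block. Of 12 tested, 3 rose and 1 fell (median 0.21). ACLY, which makes cytosolic acetyl-CoA, rose 2.34-fold to 60.7 and 73.1 RPKM with TGF-β1, against 29.1 and 28.2 RPKM in controls, and the desaturase SCD rose 1.77-fold to 353 and 407 RPKM with TGF-β1, against 211 and 218 RPKM in controls. KLF10, a TGF-β-inducible factor named after its values were seen, rose by 0.58 on the log2 scale, a call lost without either TGF-β1 library or control replicate 1. PFKFB3, which drives glycolysis through fructose bisphosphate, fell to 23.3 and 24.4 RPKM with TGF-β1, against 41 and 40 RPKM in controls (log2 -0.75, limma adjusted p = 0.00651). ACLY and SCD are also targets of sterol-regulated factors, so the list is not specific to MLX.

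Among the relatives and partners of TXNIP, the limma calls all lay in the list of partners and cargo. None of 3 other α-arrestins passed in limma, although 2 had an unadjusted p under 0.05 (ARRDC1 and ARRDC3) and the precision-weighted fit called 1, ARRDC3. ARRDC3, which had the smallest p, measured 3.78 and 2.78 RPKM with TGF-β1 and 5.17 and 7.48 RPKM in controls (log2 -0.85, limma adjusted p = 0.0971). Of 13 tested partners and cargo, 1 rose and 2 fell, beside 6.12% higher and 3.0% lower among all tested genes. DDIT4, a stress protein that binds TXNIP, rose to 38.5 and 38.3 RPKM with TGF-β1, against 24.9 and 28.4 RPKM in controls. NEDD4L, an ubiquitin ligase, fell to 2.42 and 2.78 RPKM with TGF-β1, against 5.55 and 6.15 RPKM in controls, and TXNRD1, thioredoxin reductase, to 32 and 33.7 RPKM with TGF-β1, against 41.6 and 44 RPKM in controls. Both falls missed the threshold with any 1 library left out, while the rise of DDIT4 was lost with scaling by total reads and, among single libraries left out, passed only without control replicate 2. Thioredoxin itself (TXN) and the glucose transporter SLC2A1, which were named afterwards, had log2 differences of 0.27 and -0.19 and did not pass (limma adjusted p = 0.251 and 0.354), although the precision-weighted fit called TXN higher.

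**Figure D4:**
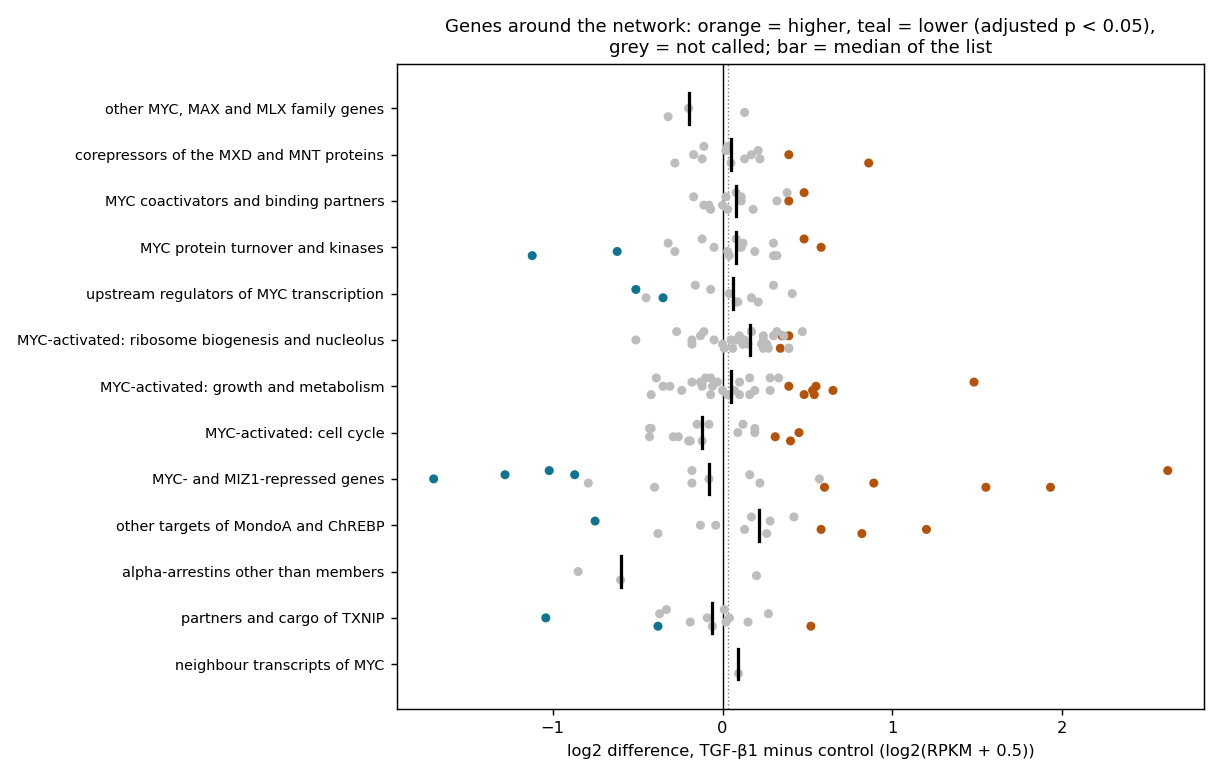
Log2 difference, TGF-β1 minus control, of every tested gene in the 13 lists around the network, 1 row per list; orange points were called higher, teal points lower and grey points neither, black bars are list medians and the dotted line is the median of all tested genes at 0.03. Medians of the MYC-activated lists are 0.16 (ribosome biogenesis and nucleolus), 0.05 (growth and metabolism) and -0.12 (cell cycle). The MYC- and MIZ1-repressed genes spread widest, with CDKN2B at 2.62 and CEBPD at -1.70.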

How the data were processed

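Libraries were prepared from TRIzol-extracted total RNA with a directional NEBNext kit, per the labels' protocols. The authors deposited RPKM values for 25609 genes in 4 libraries. STAR 2.7.1a, bcl2fastq 2.20.0.422, DESeq2 and hg38 appear, without roles, in the submitters' processing notes. Annotation release, strand setting and RPKM tool were not given in the sources used here.

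Gene symbols were matched by identifier (25312 matched) and to GENCODE 29. Multiplied by exon length, values fell on whole reads plus 0.5 times a library constant (tolerance 0.01 read) for 100% of 23853 genes of the same identifier version; for 1292 others the length was inferred. The main test used RPKM; the recovered reads gave depth, counting intervals and 3 alternatives (scaling by total reads, median-of-ratios scaling and voom).

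The test was limma 3.58.1 (R 4.3.3) on log2(RPKM + 0.5) with a variance trend, over genes averaging 0.5 RPKM or more, adjusted by Benjamini-Hochberg. The + 0.5 understates differences of weakly expressed genes. In simulated counts for 15835 genes, 100 were changed 2-fold and 100 changed 4-fold in TGF-β1 against control. Of these, 43% and 82% were recovered, beside 15 calls of unchanged genes. The simulated spread was assumed, the same for all genes, and not estimated from these libraries. Fewer genes were changed than were called in the data, so these rates may not hold for the real comparison. Alternatives were 15 other settings, among them limma's voom, a precision-weighted fit to the recovered reads.

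The 10 genes and 13 lists were chosen with earlier results of these data known. Named genes are the 10, the 3 called genes of each list with the smallest p (or the 1 smallest where none was called), and the 3 nearest profiles. A gene that meets this rule is not reported here. A planned comparison of protein sequences was not made. The promoter and seed searches used RefSeq windows on GRCh38.p14 and GENCODE 29 transcripts; the seed search was added after the data were seen.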

Additional observations from a re-analysis of the deposited data

How the results depend on the processing

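Over the alternatives, 138 of 149 values of the 10 genes kept their direction and their side of the threshold, 9 fell short of it, 2 passed it anew (MYC after quantile normalisation, MXD4 with the precision-weighted fit) and 0 changed sign. The number of genes called among the 10 was 3, against 0 without the variance trend. All called genes numbered 1513, against 977 with no expression filter, 424 without the variance trend, 3356 with the precision-weighted fit and 574 to 1138 when 1 library was left out; the group left with 1 library is then assumed to vary like the other. Of the genes outside the 10, 39 were called, against 6 without the trend, 67 with the precision-weighted fit and 15 to 25 with 1 library left out. Higher genes made up 67.1% of calls, 42.4% with scaling by total reads and 50.4% after quantile normalisation. PVT1 changed sign with scaling by total reads (-0.08), as did MIR17HG (-0.01), which ranged from -0.12 without control replicate 1 to 0.36 without control replicate 2. The cause of these differences was not tested. Same-numbered libraries did not deviate together (correlation 0.03), so the numbers were not taken to pair them; with the replicate block 1344 genes were called, and TXNIP was not (adjusted p = 0.0523). ARRDC4 and MIR17HG give no value above a mean of 2 RPKM. Counts under 30 reads, as for ARRDC4, limit what could be detected.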
